A study of Mus musculus with 8 samples.

Results

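The neurons described here are dorsal root ganglion (DRG) cells of the mouse that were labelled through Sst-IRES-Cre, an allele that makes Cre recombinase from the locus of the somatostatin gene. They were chosen by that genotype alone, and they make up 4 of the 8 RNA sequencing libraries of the study, the other 4 being from Trpv1-IRES-Cre mice, which are not described here. The animals were C57Bl/6 mice carrying Sst tm2.1(cre)Zjh. On postnatal day 2 they received, into the peritoneal cavity, AAV9-CAG-FLEX, a viral vector that makes eGFP or tdTomato only where Cre has acted. At an age of 3 to 5 weeks, ganglia from mice of both sexes were digested with collagenase and dispase, and 150 to 250 fluorescent cells per mouse were collected by hand into a pool. A cell could carry the reporter if the Sst locus was active at any time after the injection, whether or not Sst was still transcribed. Each library is the average of its pool, so fewer cells of a type and less RNA per cell cannot be told apart.

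Somatostatin is made by a small class of unmyelinated DRG neurons often named NP3, which also make the peptide Nppb and serve itch. Nppb released in the spinal cord acts on dorsal horn neurons that pass on itch signals. The same neurons carry receptors for substances released by immune cells in the skin, among them interleukin 31, oncostatin M, cysteinyl leukotrienes and serotonin, and the study is titled around Nppb neurons as detectors of itch evoked by mast cells. Other DRG classes have their own markers: Mrgprd for NP1, Mrgpra3 for NP2, Calca and Tac1 for peptidergic nociceptors, Th for C low-threshold mechanoreceptors (C-LTMRs), and heavy neurofilament and parvalbumin for large myelinated neurons.

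The libraries held 9021125 to 12153109 counts, and 14437 to 16917 gene symbols had at least 1 count. Levels are given as CPM, the count divided by the library's total and multiplied by 1000000, and the levels of single genes are compared as CPM per kilobase of exon. Exon length is that of all annotated exons of a gene joined, which can be longer than the transcript these cells make. Comparisons between genes carry that error, and the SDs do not include it. List sums and statements on which gene had the most reads are in CPM, which also depends on length. A gene was counted as present when it reached 1 CPM in all 4 libraries. By that rule 9226 of 43372 gene symbols were present (21.3%), 5484 reached 1 CPM in 1 to 3 libraries (12.6%), 4904 had counts but stayed below 1 CPM in every library (11.3%), and 23758 had 0 counts in all 4 (54.8%). A count of 0 allows a level of up to 3 counts, which was 0.247 to 0.333 CPM here. The reads carried no molecular identifiers, so this limit covers counting error only. Mitochondrial ribosomal RNA took 18.5% to 27.9% of the counts, and other mitochondrial genes 3.21% to 5.16%. Although the labels name both sexes, all 4 libraries held Xist RNA (4240 to 6598 counts) and 0 counts of Y-linked genes. No 2 libraries were alike within counting error, with a chi-square per degree of freedom of 40.5 at the least and 102 at the most over the 6 pairs.

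All 6 marker genes given for the labelled class were present, beside 21.3% of all symbols. They were chosen with earlier results of these data known, so their detection is no separate support for the class. Sst itself, on chromosome 16 (23889573 to 23890958, minus strand, GRCm38), was at 185, 79.0, 209.8 and 304 CPM in replicates 1 to 4, a mean of 194 ± 92.4 (SD, n = 4). Replicate 2 had the lowest level and replicate 4 the highest, 3.84-fold apart. Nppb (chromosome 4, 147985788 to 147987205, plus strand) was at 28.9, 54.8, 24.9 and 57.1 CPM, with replicates 2 and 4 above the other pair. Per kilobase Sst averaged 269.7 ± 128 and Nppb 53.0 ± 21.6 CPM, which placed them at ranks 39 and 415 of the nuclear genes. The lowest Sst value per kilobase, in replicate 2, was above the highest Nppb value, in replicate 4 (109.6 against 73.1).

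The receptor genes of the class had means between those of Sst and Nppb on the per kilobase scale. Il31ra (chromosome 13, 112519898 to 112594360) encodes the specific subunit of the interleukin 31 receptor and was at 342, 413, 496 and 552 CPM. Its partner subunit Osmr (chromosome 15, 6813577 to 6874969), shared with oncostatin M, was at 829, 844, 619 and 1427 CPM. In CPM Osmr was above Il31ra in every library. Per kilobase of annotated exon the means were close, at 79.5 ± 16.3 for Il31ra and 76.8 ± 28.6 CPM for Osmr, which depends on the exon lengths used. Cysltr2 (chromosome 14, 73025603 to 73049114), a receptor for cysteinyl leukotrienes, was at 313, 437, 218 and 408 CPM or 119.8 ± 34.5 per kilobase. Htr1f (chromosome 16, 64924729 to 65105854), an inhibitory serotonin receptor, was at 109, 192, 152 and 243 CPM or 67.5 ± 22.2 per kilobase. In order of mean CPM per kilobase the genes ran Sst, Cysltr2, Il31ra, Osmr, Htr1f and Nppb, and every pair of neighbours in that order overlapped in their 4 values.

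The wider NP3 list had all 15 of its 15 members present, with a median of 344 CPM over members. Of all symbols 21.3% were present, but 54.8% of those symbols had 0 counts in every library. The list was chosen with earlier results of these data known, so its full detection is no separate support for the class. The most counts fell on Jak1, a kinase that cytokine receptors signal through, at 2459, 2653, 3115 and 3438 CPM. Per kilobase Jak1 averaged 404 ± 61.4 CPM, rank 21 of the nuclear genes, above the means of Osmr, Il31ra, Il6st and Lifr, receptor subunits that signal through it. Npy2r, an inhibitory receptor of neuropeptide Y, was at 356, 382, 279 and 522 CPM, and Il6st, the shared subunit gp130, at 833, 1160.4, 824 and 1136 CPM. Jak1, Il6st and Stat3 are made by many cell types, whereas Il31ra, Sst, Nppb, Cysltr2 and Htr1f are narrower. The remaining members were Plxnc1 (451 CPM), Stat3 (413), Htr1a (146), S1pr1 (39.8), Nts (34.6) and Trpc6 (13.5), given as means. Summed over the list, the libraries held 6443, 7192, 7101 and 9349.5 CPM.

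**Figure D1:**
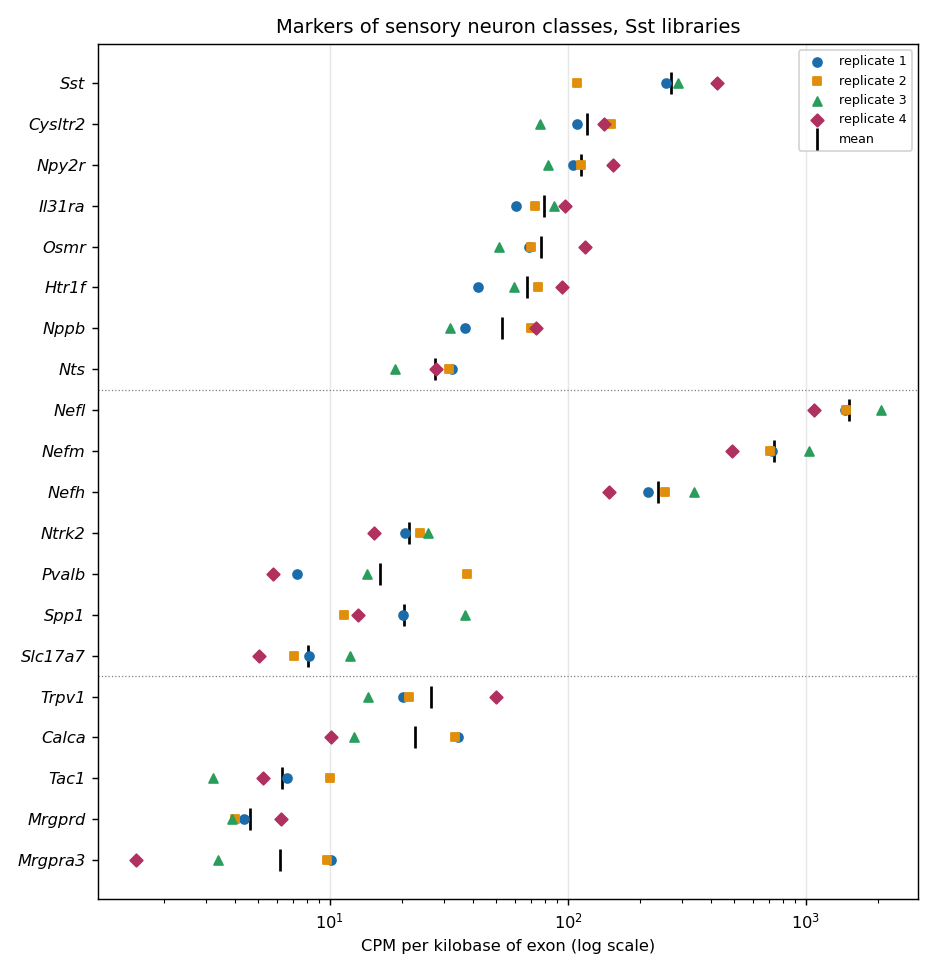
Level of markers of sensory neuron classes in each Sst library, as CPM per kilobase of exon on a log axis, with the mean of 4 as a bar. NP3 markers are above the upper dotted line, markers of myelinated neurons between the lines, and Trpv1 with markers of other nociceptor classes below. Nefl and Nefm stand above every NP3 marker, and Mrgprd, Mrgpra3 and Tac1 have means below 10 CPM per kilobase.

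Markers of large myelinated neurons were also abundant, so the pools held RNA beyond that of NP3 markers. Of 27 listed markers 24 were present (88.9%, beside 21.3% of all symbols). Their sum was 12943, 13094, 18152 and 9540.4 CPM, a larger share of reads than the NP3 sum in each library, over more genes. Most of this sum came from neurofilament genes, which smaller DRG neurons also transcribe: Nefl was at 4935, 4974, 6992 and 3643 CPM, Nefm at 4144, 4073, 5928 and 2832 CPM and Nefh at 866, 1024, 1347 and 594 CPM. Without the 3 neurofilament genes the sum was 2998, 3023, 3885 and 2471 CPM, below the full NP3 sum in each library. The NP3 sum without the widely made Jak1, Il6st and Stat3 was 2774, 2946, 2721 and 4377 CPM. Set against that, the sum without neurofilaments was higher in replicates 1 to 3 and lower in replicate 4. Of the 24 markers other than neurofilaments, 21 were present and 7 reached 100 CPM in every library. The genes given next have a narrower pattern and do not stand for that list. Ntrk2, the receptor for BDNF, was at 397, 461, 499.97 and 295 CPM but only 21.4 ± 4.64 per kilobase. Pvalb, the calcium buffer of proprioceptors, was at 7.57, 39.0, 14.9 and 6.01 CPM, highest in replicate 2, and Spp1 at 33.3, 18.8, 60.8 and 21.6 CPM, highest in replicate 3. Slc17a7, the vesicular glutamate transporter typical of large neurons, was at 44.2, 37.9, 65.2 and 27.2 CPM. The part of myelinated neurons in the other results was not tested.

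The lists of the other small-neuron classes held genes at very different levels. Of the NP1 markers, which summed to 1153 to 1448 CPM, Scn11a (Nav1.9) and Plxnc1 were at 100 CPM or more in every library, with means of 102 ± 23.3 and 54.0 ± 11.7 CPM per kilobase. Mrgprd, also of NP1, was at 13.6, 12.5, 12.21 and 19.7 CPM, or 4.61 ± 1.11 per kilobase. The NP2 markers summed to 179 to 199 CPM, and Carhsp1 gave most of that, at 112, 109, 147 and 164 CPM. Mrgpra3, of NP2 too, was at 13.1, 12.5, 4.37 and 1.97 CPM, or 6.18 ± 4.37 per kilobase, and was higher in replicates 1 and 2 than in replicates 3 and 4. Both belong to the Mrgpr family, whose copies are nearly identical, and reads that match several of them make these values uncertain. For peptidergic nociceptors, Calca (the precursor of calcitonin gene-related peptide) was at 58.2, 56.2, 21.2 and 17.0 CPM and Tac1 (the precursor of substance P) at 22.4, 34.1, 11.0 and 17.8 CPM. Calca too was higher in replicates 1 and 2, and with its near copy Calcb it can lose reads that match both. Nts, Nppb and Sst were each above Calca and Tac1 in mean CPM per kilobase, although the 4 values of Nts and Calca overlapped (27.7 ± 6.30 and 22.7 ± 13.1).

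The C-LTMR and cold-sensing lists also held genes at different levels. Th, which makes the precursor of dopamine and marks C-LTMRs, was at 5.75, 0, 7.64 and 0 CPM, with 0 counts in replicates 2 and 4. Trpm8, the cold and menthol channel, was at 2.93, 4.43, 1.39 and 0.0823 CPM. By list, 6 of 8 NP1 markers, 5 of 7 NP2 markers, 5 of 11 peptidergic markers, 3 of 7 C-LTMR markers and 1 of 5 cold markers were present. In that order the shares were 75%, 71.4%, 45.5%, 42.9% and 20%, beside 21.3% of all symbols, so the cold share was near that of all symbols. The C-LTMR markers summed to 377 to 857 CPM and the cold markers to 12.3 to 30.2 CPM. Some of those members are shared: Plxnc1 stands in both the NP3 and NP1 lists, and Piezo2, the channel for touch, was the most read C-LTMR member (mean 589.9 ± 187 CPM). All 16 pan-sensory markers were present. Prph (peripherin) was at 325, 542, 579 and 386 CPM and Avil (advillin) at 334, 271, 307 and 219 CPM, both of them genes of peripheral sensory neurons.

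Among nuclear transcripts Nefl stood first per kilobase, at 1519.6 ± 409 CPM. Map1b, a microtubule-associated protein of axons, followed at 1328 ± 112, but their values overlapped, since Nefl was below Map1b in replicate 4. Hsp90ab1, a chaperone, averaged 1063 ± 159 CPM per kilobase, calmodulin (Calm2) 906 ± 59.3 and alpha-tubulin (Tuba1a) 885 ± 212. Next came Nefm (734), Ywhae (696, a 14-3-3 adaptor protein), Cdr1 (679.9), Ndrg4 (621) and Cd24a (619.8, a surface glycoprotein). Reads from Cdr1 and from the RNA antisense to it cannot be told apart without strand, and the use of strand is not given. The places from 11 to 16 were held by Reep5, Snap25, Spock2, Ywhaz, Atp1b1 and Scg2, from 601 down to 439 CPM per kilobase. Snap25 is part of the fusion machinery of vesicles, Atp1b1 a subunit of the sodium pump, and Scg2 (secretogranin 2) a protein of dense-core vesicles, the organelles that store peptides.

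**Figure D2:**
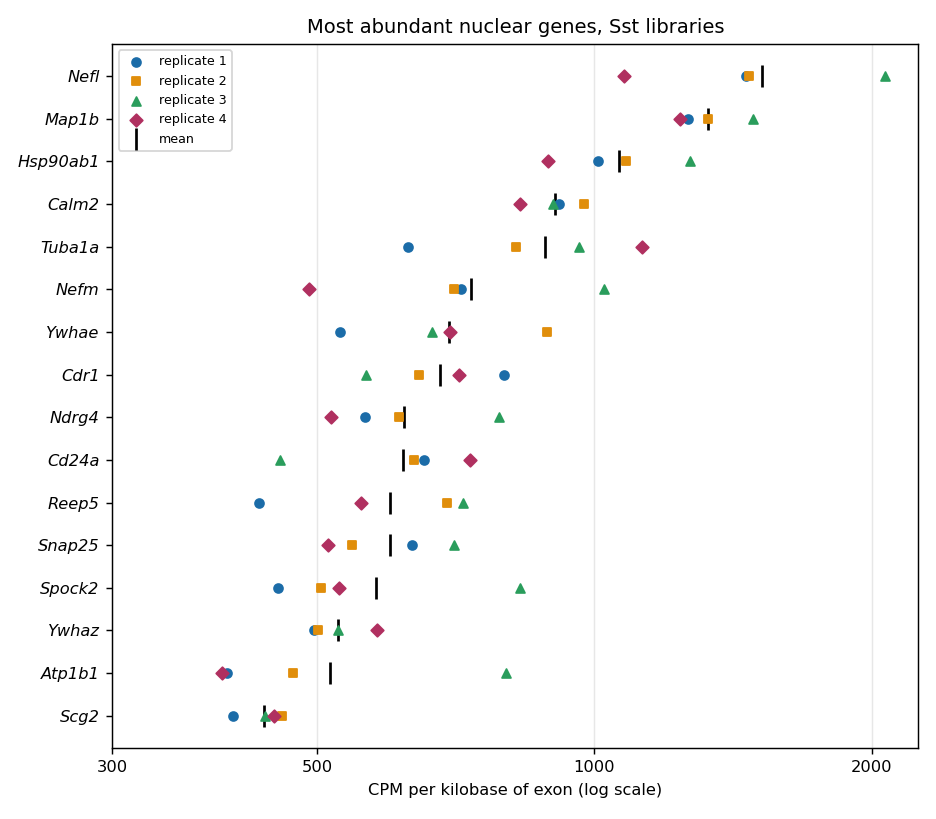
The 16 nuclear genes with the highest mean CPM per kilobase of exon, with each of the 4 Sst libraries as a point and the mean as a bar, on a log axis. Nefl, Nefm and Ndrg4 are highest in replicate 3 and lowest in replicate 4, whereas Tuba1a and Cd24a are highest in replicate 4.

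By read share alone, Map1b led the nuclear genes at 20000.1, 21026, 23564 and 19608 CPM. The 20 nuclear genes with the most reads also held Prune2, Map1a, Ank2, Sptbn1, Akap12, Kif1a, Lars2, Jak1, and the symbols Yam1 and Gm23935. Ank2 and Sptbn1 build the membrane skeleton and Kif1a is a motor that carries vesicles along axons. These genes have long transcripts, and per kilobase Ank2 averaged only 102 ± 13.7 CPM. Among mitochondrial genes mt-Rnr2 took most reads, at 199570.0, 156805, 124703 and 196223 CPM, followed by mt-Rnr1 at 73403, 68081, 60579 and 82643 CPM. In all, 1070 genes reached 100 CPM in every library. Of the 100 genes with the most reads in each library, 75 were shared by all 4 and 83 to 90 by each pair.

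Neuropeptide transcripts came from few genes. Of 59 listed neuropeptides and peptide hormones in the table, 6 were present (10.2%, beside 21.3% of all symbols): Sst, Nppb, Nmb, Nts, Calca and Tac1. Nmb, the precursor of neuromedin B, was at 20.4, 14.3, 29.0 and 39.2 CPM and Nts, the precursor of neurotensin, at 40.6, 39.6, 23.4 and 34.8 CPM. Per kilobase the means ran from Sst (269.7) through Nppb (53.0), Nmb (32.4), Nts (27.7) and Calca (22.7) to Tac1 (6.28). Another 9 reached 1 CPM in some libraries only, among them Calcb and Cck. A further 34 had 0 counts in all 4 (57.6%), near the 54.8% of all symbols. They included Npy, Vip, Grp, Tac2, Tac4, Pdyn, Pnoc, Crh, Trh, Ucn, Oxt, Nppc, Apln and Edn1. Gastrin-releasing peptide (Grp), another candidate itch transmitter, was thus not detectable at this depth. The rest of the 34 were Galp, Ucn2, Ucn3, Iapp, Ghrh, Sct, Adm2, Kiss1, Hcrt, Pmch, Npw, Nps, Npb, Cort, Prok2, Npvf, Qrfp, Pyy, Gip and Gcg. Penk and Gal had counts but stayed below 1 CPM in every library.

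Of the listed genes that serve to make and store peptides, 15 of 15 were present, beside 21.3% of all symbols. Scg2 was at 1021, 1154, 1106 and 1131 CPM, one of the steadiest abundant genes. Scg3 was at 435, 358, 366 and 359 CPM, the carboxypeptidase Cpe at 263, 351, 453 and 195 CPM and the granin Chgb at 186, 226, 362 and 162 CPM. Cadps, a priming factor for dense-core vesicles, was at 515, 591, 600.0 and 359 CPM. Pam, the enzyme that amidates peptide ends, was at 84.6, 83.7, 83.7 and 84.4 CPM and had the smallest spread of all genes with a mean of at least 50 CPM (a coefficient of variation of 0.575%).

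Of 30 listed growth factors and cytokines 9 were present (30.0%, beside 21.3% of all symbols). Fstl1, a secreted follistatin-like protein, was at 1591, 1609.7, 1987 and 1908 CPM, Fgf1 at 709, 867, 514 and 279.5 CPM and Fgf13 at 419, 318, 335 and 457 CPM. Fgf1 was lowest in replicate 4. Nrg1 and Ptn averaged 119.9 ± 17.2 and 82.3 ± 30.1 CPM. Among the others, Tslp, Artn, Ntf5, Cntf and Lif had 0 counts in all 4 libraries.

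Receptors were sparser than channels: 84 of 286 listed receptor genes were present (29.4%), against 159 of 303 listed channel genes (52.5%) and 21.3% of all symbols. Cytokine receptors gave most, 22 of 46. Lifr, the receptor for leukaemia inhibitory factor, was at 1324, 1295, 1406 and 1366 CPM, above Il6st per kilobase (125 ± 4.52 against 89.0 ± 16.7), and its 4 values lay within 1.09-fold of each other. Bmpr2, a receptor for bone morphogenetic proteins, was at 1029.6, 971, 1017 and 1166 CPM. With Osmr, Il31ra, Lifr and Il6st, the subunits of the interleukin 31, oncostatin M and leukaemia inhibitory factor receptors were each at 300 CPM or more in every library. Of the receptors of the type 2 cytokines, Il4ra was at 6.66, 3.10, 15.2 and 15.1 CPM and Il13ra1 at 16.5, 9.201, 4.27 and 13.6 CPM, or 1.67 ± 1.01 and 2.93 ± 1.43 per kilobase, and Il17ra averaged 9.06 ± 5.13 CPM. Crlf2, a subunit of the TSLP receptor, did not reach 1 CPM in every library, and its partner Il7r had 0 counts. Il1rl1 (the interleukin 33 receptor), Il13ra2, Il20ra, Il22ra1 and Il5ra also had 0 counts in all 4.

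Serotonin receptors were led by inhibitory subtypes. Of 14 listed, 6 were present. Htr1a was at 116, 129, 153 and 187 CPM and Htr1d at 78.7, 54.6, 56.0 and 80.6 CPM, and per kilobase the order was Htr1f (67.5), Htr1a (32.6) and Htr1d (21.1). The channel subunit Htr3a was at 17.1, 29.2, 18.6 and 3.79 CPM and Htr2a, an excitatory receptor, at 19.6, 9.87, 10.2 and 5.92 CPM. Htr7 reached 1 CPM in some libraries only.

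Histamine receptors varied between libraries, and only Hrh2 of the 4 was present. Hrh1, the main histamine receptor of itch neurons, was at 4.64, 29.9, 0.893 and 4.11 CPM, and its mean of 9.90 ± 13.5 was 3.22 without replicate 2. Hrh2 was at 18.7, 1.55, 5.16 and 8.97 CPM and was highest in replicate 1. Hrh3 was at 1.62, 0.887, 5.16 and 0 CPM, and Hrh4 had 0 counts in all 4 libraries.

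Among lipid mediator receptors, Cysltr2 stood alone in its family. The related Cysltr1 was at 0, 0.998, 0 and 0 CPM, and Oxgr1 and Ltb4r2 had 0 counts in all 4. Ptafr, the receptor for platelet-activating factor, was at 49.7, 55.6, 85.7 and 109 CPM. Of the 9 prostanoid receptors 4 were present: Ptgir (18.0, 16.4, 17.2 and 26.99 CPM), which binds prostacyclin, and Ptger4, Ptger1 and Ptgdr at means of 13.9, 11.4 and 5.63 CPM. Ptgfr was at 18.0, 18.8, 13.5 and 0 CPM, with 0 counts in replicate 4, and Ptgdr2 had 0 counts throughout. For sphingosine 1-phosphate, S1pr3 was at 85.4, 97.3, 124 and 67.1 CPM and S1pr1 at 35.3, 21.8, 29.2 and 72.7 CPM. Lpar1, a lysophosphatidic acid receptor, was at 51.0, 55.6, 23.3 and 80.8 CPM, Lpar3 at 6.26, 1.33, 16.5 and 5.35 CPM, highest in replicate 3, and S1pr4 had 0 counts.

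The protease receptors included one of the most read receptor genes. F2rl2, which encodes PAR3, was at 432, 537, 327 and 495 CPM, or 179 ± 36.5 per kilobase, above Cysltr2 in mean. F2rl1, which encodes PAR2, the receptor for tryptase, was at 14.5, 25.5, 23.8 and 119 CPM, and its mean of 45.6 ± 48.9 was 21.3 without replicate 4. F2r (PAR1) was at 12.21, 4.77, 28.5 and 3.62 CPM and F2rl3 (PAR4) at 0.101, 1.55, 0 and 25.9 CPM, the latter again mostly from replicate 4. The endothelin receptors Ednrb and Ednra were both present, Ednrb at 21.7, 6.21, 5.26 and 27.9 CPM. Satellite glia also make Ednrb, and it stands in their list too. Bdkrb2, a bradykinin receptor, had 0 counts.

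Of 18 Mrgpr genes 5 were present (27.8%), not far from the 21.3% of all symbols. Mrgpre was at 48.7, 39.8, 30.1 and 5.02 CPM, Mrgpra2b at 17.7, 9.75, 2.58 and 25.4 CPM and Mrgprx1, also known as Mrgprc11, at 7.67, 6.43, 4.76 and 7.49 CPM. Mrgprb2, the receptor of mast cells, had 0 counts in all 4, as had Mrgprb1, Mrgprb3, Mrgprb8 and Mrgprg.

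Only the mu opioid receptor was present among 9 opioid and somatostatin receptors. Oprm1 was at 136, 102, 90.4 and 169.6 CPM. Oprd1, Oprk1 and Oprl1 reached 1 CPM in some libraries only. Oprd1 was at 2.42, 10.8, 0.496 and 1.48 CPM, Oprk1 at 0.908, 0, 8.34 and 0 CPM and Oprl1 at 3.33, 0.998, 5.66 and 0.905 CPM, so the first was highest in replicate 2 and the others in replicate 3. Of the somatostatin receptors, Sstr1, Sstr3 and Sstr5 had 0 counts and Sstr2 and Sstr4 stayed below 1 CPM in every library, so no receptor for the peptide that names these cells reached 1 CPM. Neuropeptide receptors had 12 of 52 members present (23.1%), near the 21.3% of all symbols. Npy2r led with a mean of 114 ± 29.9 CPM per kilobase, followed in read share by Ghr (79.9 ± 26.6 CPM), Sort1 (62.9 ± 26.4), Prokr1 (46.6 ± 28.2) and Npr2 (45.4 ± 18.6). Npr2 is the receptor for C-type natriuretic peptide, whose gene Nppc had 0 counts. Npr1, which Nppb acts through, stayed below 1 CPM in every library. The substance P receptor Tacr1 had 0 counts, as had Tacr2, Vipr1, Calcr, Ramp1, Ramp3, Npy6r, Ntsr1, Nmbr, Avpr1b, Avpr2, Mc4r, Prlhr, Glp1r, Glp2r and Gipr.

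Adrenergic, dopamine and muscarinic receptors were few. Of 19 such genes 1 was present (5.26%, beside 21.3% of all symbols), Drd3, at 10.3, 5.54, 2.08 and 11.7 CPM. Adra2b, Adrb3, Drd4, Drd5 and Chrm5 had 0 counts. Of 16 metabotropic glutamate, GABA-B, cannabinoid and adenosine receptors 7 were present (43.8%). Both subunits of the GABA-B receptor were present, Gabbr1 at 209, 149, 272 and 286 CPM and Gabbr2 at 269, 174, 360.3 and 159.5 CPM. Adora1 (adenosine) and Grm4 (glutamate) averaged 45.2 ± 18.3 and 28.02 ± 7.53 CPM. Cnr1 (cannabinoids) was at 13.02, 12.6, 43.2 and 14.1 CPM, highest in replicate 3. P2ry1, a receptor for ADP, was at 105, 175, 141 and 91.4 CPM and was the only one of 8 P2Y receptors that was present. Ackr1, an atypical receptor that binds chemokines without signalling, was at 26.1, 34.4, 41.8 and 36.8 CPM. It was the only one of 19 chemokine receptors that was present, while 11 had 0 counts (57.9%, near the 54.8% of all symbols). Toll-like and innate receptors had 0 of 16 present, and Tlr5 had the most reads at 4.74, 1.88, 5.76 and 0.987 CPM.

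Receptors for growth factors had 13 of 28 members present. Ngfr (p75) was at 291, 434, 303 and 150.5 CPM, or 85.4 ± 33.6 per kilobase. Ret, the receptor for the GDNF family, was at 238, 117, 219.8 and 196 CPM. Its co-receptor Gfra2 averaged 42.0 ± 27.2 CPM, Gfra1 29.4 ± 17.6 and Gfra3 13.3 ± 9.77. With each library left out in turn, Ntrk3, the receptor for neurotrophin 3, had a mean of 65.2 to 81.1 CPM. For Fgfr1 it was 51.3 to 63.4 CPM, and both genes had more reads than the Gfra means above. On the other scale, per kilobase, Ntrk3 averaged 2.31 ± 0.759 CPM and Fgfr1 5.64 ± 1.65.

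**Figure D3:**
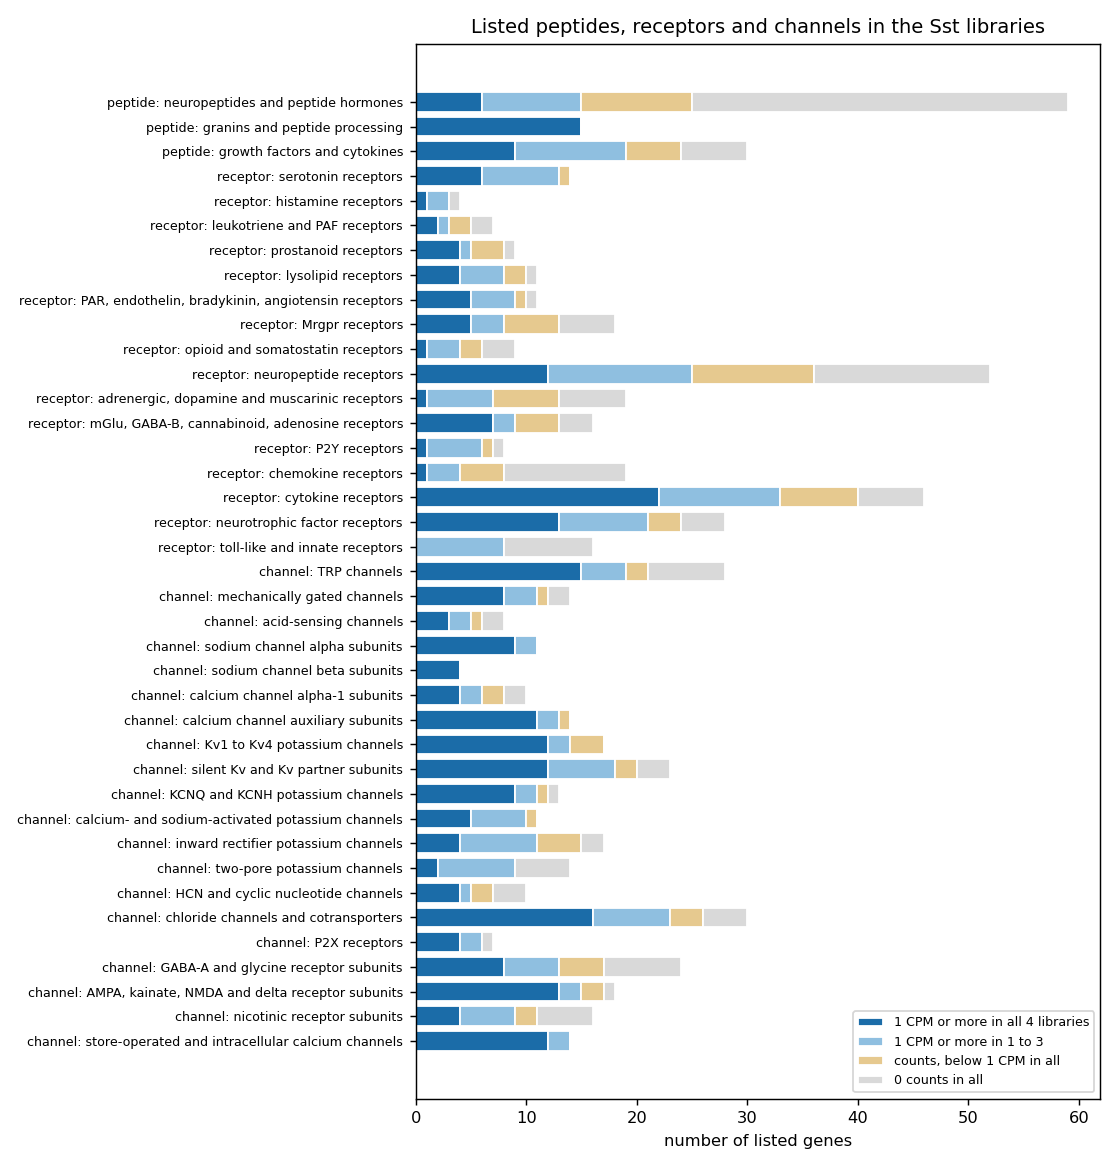
Number of listed genes of each peptide, receptor and channel family by detection in the 4 Sst libraries. Bars split each list into genes at 1 CPM or more in all 4, in 1 to 3, below 1 CPM in all, and with 0 counts in all, so that sodium channels and peptide processing are nearly all dark and chemokine and adrenergic receptors are mostly pale.

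Most voltage-gated sodium channel genes were present, with 9 of 11 alpha subunits and 4 of 4 beta subunits present. The nociceptor channels Scn10a (Nav1.8), Scn9a (Nav1.7) and Scn11a (Nav1.9) were at 706, 668, 712 and 878 CPM, 676, 743, 608 and 624 CPM and 595, 639.8, 426 and 759 CPM. Per kilobase they averaged 93.0 ± 11.7, 51.9 ± 4.76 and 102 ± 23.3 CPM. Scn7a, which encodes the sodium-sensing channel Nax, was at 1049, 1030.0, 799 and 735 CPM, or 123 ± 21.8 per kilobase. The channels of large neurons were lower per kilobase, with Scn8a (Nav1.6) at 22.5 ± 7.30 CPM and Scn1a (Nav1.1) at 18.4 ± 6.52. Scn8a was highest in replicate 3, at 330.4, 296, 522 and 268 CPM. The beta subunit genes Scn3b, Scn4b and Scn2b averaged 162 ± 35.5, 144 ± 55.3 and 79.2 ± 20.1 CPM.

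Of 28 TRP channels 15 were present. Trpv1, the heat and capsaicin channel that itch neurons signal through, was at 74.3, 79.3, 53.2 and 184 CPM, with replicate 4 above the other 3, and its mean was 26.6 ± 16.0 CPM per kilobase. Trpa1, the irritant channel, was lower, at 19.8, 10.1, 6.85 and 19.8 CPM and 3.32 ± 1.57 per kilobase, and every Trpv1 value per kilobase lay above every Trpa1 value (14.5 at the lowest against 4.65 at the highest). Trpm2, Trpm7, Trpc1 and Trpm6 averaged 63.4 ± 12.95, 47.3 ± 13.2, 46.6 ± 8.70 and 46.3 ± 12.6 CPM. Trpc6, a channel opened through phospholipase C, was at 9.59, 16.4, 14.7 and 13.4 CPM. Trpv4, Trpv5, Trpm5, Trpc7, Mcoln2, Mcoln3 and Pkd2l1 had 0 counts in all 4.

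Mechanically and acid-gated channels were present in part. Piezo2 was at 612, 638, 779 and 331 CPM and was lowest in replicate 4, and Piezo1 averaged 5.60 ± 2.52 CPM. Per kilobase they averaged 34.4 ± 10.9 and 0.564 ± 0.253 CPM. The osmosensitive channel genes Tmem63b, Tmem63c and Tmem63a averaged 93.2 ± 13.02, 58.7 ± 8.65 and 46.7 ± 21.3 CPM, and Tmem150c 29.1 ± 13.6. Stoml3 and Tmc2 had 0 counts. Of the acid-sensing channels, Asic2 was at 41.5, 29.5, 60.9 and 26.99 CPM, Asic1 at 11.8, 23.7, 22.6 and 25.8 CPM and Asic3 at 25.2, 13.3, 5.26 and 5.76 CPM.

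Calcium channels of the L and N types had the most reads of their family. Cacna1c (L type) was at 318, 461, 407 and 399 CPM and Cacna1b (N type, the channel of transmitter release) at 257, 245, 347 and 457 CPM. Per kilobase Cacna1b stood above Cacna1c (32.8 ± 9.88 against 18.7 ± 2.80), and their 4 values did not overlap. The T-type channel Cacna1h was at 64.1, 99.1, 52.6 and 10.7 CPM and was lowest in replicate 4, and Cacna1a (P/Q type) at 64.3, 46.8, 103 and 39.3 CPM. Cacna1f and Cacna1s, the channels of retina and muscle, had 0 counts. The auxiliary subunits had 11 of 14 present. Cacna2d2 averaged 176 ± 43.1 CPM, Cacna2d1, the target of gabapentin, 139 ± 35.2, Cacnb3 143 ± 37.3, Cacnb4 99.7 ± 50.7 and Cacng5 24.9 ± 9.25.

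Potassium channels were numerous, with delayed rectifiers and ERG channels ahead. Kcnh7 (an ERG channel) was at 1261, 1098, 1274 and 1407 CPM, or 82.7 ± 8.32 per kilobase. Kcnb2 (Kv2.2) was at 729, 910.2, 736 and 884 CPM, or 53.7 ± 6.30 per kilobase. Kcna1 (Kv1.1) reached a similar mean per kilobase, 77.5 ± 30.2, but its levels were uneven, at 458, 424, 445 and 155 CPM with replicate 4 the lowest. Kcna2 and Kcnc4 were also lowest in replicate 4, at 247, 228, 342 and 74.4 CPM and 88.7, 201, 168 and 37.0 CPM. Kcnd1, an A-type channel, was at 282, 176, 216 and 267 CPM. The M-current gene Kcnq3 was at 233, 178, 218 and 112 CPM, again lowest in replicate 4.

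Partner and other potassium channel subunits followed. Dpp6, Kcnip3, Kcnab2, Kcng3 and Kcnip4 averaged 247 ± 31.9, 244 ± 62.0, 201 ± 86.0, 91.3 ± 25.01 and 84.8 ± 15.1 CPM, and 12 of 23 genes of their list were present. Kcnt1, a sodium-activated channel, was at 103, 123, 82.0 and 161 CPM and Kcnmb1 averaged 35.3 ± 10.4 CPM. Of the inward rectifiers 4 of 17 were present (23.5%), near the 21.3% of all symbols. Kcnj10 had the most reads, at 25.7, 67.2, 38.7 and 77.0 CPM, and it is also a marker of satellite glia. K2P channels, which carry leak current, had 2 of 14 present (14.3%). Kcnk1 was at 100.4, 109.7, 115 and 42.4 CPM. Kcnk18 (TRESK) was at 40.1, 3.99, 76.3 and 9.87 CPM, 19.1-fold apart between replicates 2 and 3. Kcnk6, Kcnk7, Kcnk9, Kcnk15 and Kcnk16 had 0 counts.

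Among chloride channels, Ano3 was at 489.9, 489.5, 493 and 534 CPM, within 1.09-fold over the 4 libraries. Ano6, Clcn6, Clcn3 and Clcn5 averaged 133 ± 23.9, 115 ± 43.9, 109 ± 11.4 and 103 ± 31.3 CPM. Ano1, the calcium-activated channel of many nociceptors, was at 4.74, 3.99, 11.8 and 2.80 CPM and Ano2 had 0 counts. Slc12a2, which loads chloride into sensory neurons, was present, whereas Slc12a5, which extrudes it in central neurons, was not present in every library.

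Ligand-gated channels included receptors for ATP, GABA, glutamate and acetylcholine. P2rx3, the ATP channel of nociceptors, was at 132, 158, 169 and 82.4 CPM, and P2rx2 and P2rx4 averaged 12.6 ± 6.86 and 12.5 ± 7.28 CPM, while P2rx1 had 0 counts. P2rx6 was at 6.56, 3.10, 24.2 and 1.65 CPM, and its mean of 8.88 fell to 3.77 without replicate 3. Of 24 GABA-A and glycine receptor subunits 8 were present, and Gabra6, Gabrd, Gabre, Gabrp and Gabrq had 0 counts. Of the glutamate-gated channels 13 of 18 were present, with Gria4 at 100.1, 107, 124 and 86.0 CPM, Grik4 at 49.0, 43.6, 63.1 and 65.3 CPM and Gria3, Gria2 and Grin3a at means of 48.6, 34.3 and 25.9 CPM. Grin2a had 0 counts. Nicotinic receptor genes were uneven between libraries. Chrnb2 was at 30.7, 47.2, 66.9 and 12.6 CPM, Chrna6 at 51.3, 26.8, 43.1 and 31.4 CPM and Chrnb3 at 33.0, 15.1, 22.7 and 0 CPM, with 0 counts of the last in replicate 4. Of the intracellular calcium channels 12 of 14 were present, and Ryr2 was at 87.1, 107, 86.2 and 28.3 CPM.

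The transmitter genes were those of glutamatergic neurons. Slc17a6, which loads glutamate into vesicles (VGLUT2), was at 191, 199.97, 187 and 123 CPM, or 32.4 ± 6.56 per kilobase, above Slc17a7 (VGLUT1) at 8.09 ± 2.97 in every library. Nos1, which makes nitric oxide, was at 48.1, 27.05, 64.2 and 41.1 CPM, and Slc18a2, which loads monoamines, at 18.1, 29.4, 6.45 and 10.7 CPM. Several genes for GABA, glycine, acetylcholine, catecholamine and serotonin transmission had 0 counts in all 4 (Slc32a1, Slc6a5, Chat, Slc18a3, Dbh, Ddc, Pnmt, Slc6a3, Slc6a4). Others were not present in every library (Gad1, Gad2, Th). Of 34 vesicle fusion genes 29 were present, with Snap25 at 4304, 3709.6, 4782 and 3491 CPM, Syt11 at 762, 724, 849 and 702 CPM and Vamp2 at 714, 645, 599.8 and 729 CPM. Syn1, a synapsin, was at 523, 449, 507 and 762 CPM.

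Of 48 transcription factors of sensory neurons 29 were present (60.4%). Zbtb20 was at 1398, 1214, 1661 and 1986 CPM, Klf7 at 905, 1074, 911 and 1257 CPM and Etv1 at 641, 646, 519 and 802 CPM. Per kilobase Klf7 (128 ± 20.5) stood above Zbtb20 (50.9 ± 10.9) and Etv1 (49.0 ± 8.72) in every library. Prdm12, which is needed for nociceptor development, was at 265, 208, 339.6 and 419 CPM or 125 ± 37.1 per kilobase, level with Klf7. Runx1, a factor of non-peptidergic nociceptors, was at 168, 219.6, 154 and 266 CPM, whereas Runx3, of proprioceptors, was at 5.25, 5.21, 9.73 and 4.61 CPM. Per kilobase every Runx1 value lay above every Runx3 value (12.8 at the lowest against 1.94 at the highest). The general sensory factor Pou4f1 was at 145, 136, 157 and 159 CPM, with little spread, and Isl1 at 28.5, 27.2, 42.3 and 38.8 CPM. Neurog1 and Neurog2, which act in progenitors, had 0 counts, as had Mafa and Hmx1.

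Genes switched on by handling or stress were present throughout. Of 16 immediate early and stress genes 15 were present (93.8%, beside 21.3% of all symbols). Jun was at 176, 328, 218 and 189.8 CPM, Dusp1 at 149, 181, 169.5 and 184 CPM, Egr1 at 152, 147, 117 and 254 CPM, Hspa5 (a chaperone of the endoplasmic reticulum) at 179.6, 141, 162 and 109 CPM and Fosb at 135, 84.8, 109 and 189.9 CPM. Of 12 nerve injury genes 5 were present (41.7%). Atf3, induced in DRG neurons by nerve injury, was at 97.4, 67.7, 98.1 and 90.1 CPM, Gap43, a growth cone protein, at 32.6, 72.6, 33.1 and 49.0 CPM and the calcium channel subunit gene Cacna2d1 at a mean of 139 ± 35.2 CPM. Per kilobase the means were 41.0, 30.7 and 11.2 CPM. Sprr1a, Npy and Vip had 0 counts and Gal stayed below 1 CPM. The part of dissociation in these levels was not tested.

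Transcripts of satellite glia and Schwann cells accompanied the neurons. Of 14 satellite glia markers 13 were present (92.9%), and of 10 Schwann cell markers 6 (60%), beside 21.3% of all symbols. Their summed level was 1266 to 1697 CPM (mean 1424 ± 193), beside an NP3 sum of 6443 to 9349.5 CPM, or 2721 to 4377 CPM without the widely made Jak1, Il6st and Stat3. Glul was at 214, 240.2, 256 and 424 CPM, Sparcl1, Sparc and Fabp7 averaged 164 ± 50.3, 126 ± 41.3 and 64.3 ± 25.1 CPM, and the myelin genes Pmp22 and Mbp averaged 298 ± 61.2 and 113 ± 51.3 CPM. Fabp7 is made by satellite glia and Mbp by myelinating Schwann cells. The part of these cells in levels of shared genes such as Kcnj10, Ednrb and Ngfr was not tested.

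Markers of immune, mast and muscle cells were low. The 13 macrophage markers summed to 5.36 to 23.5 CPM, and 0 of them were present in all 4 libraries. Of the 13, 9 reached 1 CPM in some libraries, 2 stayed below it and Aif1 and C1qa had 0 counts. Cd74 had the most reads of them, at 9.89, 1.55, 0 and 10.6 CPM. Mast cell markers summed to at most 1.73 CPM, with Tpsb2, Mcpt4, Fcer1a and Ms4a2 at 0 counts and Cpa3 at 0, 0.333, 0 and 0.741 CPM. Skeletal muscle markers summed to at most 0.695 CPM. The red blood cell list had 1 of 5 members present (20%), Hbb-bs, at 4.04, 6.10, 6.95 and 8.80 CPM. Endothelial markers had 2 of 8 present (25%), Flt1 at 20.4, 33.6, 4.66 and 51.3 CPM and Cdh5 at 2.02, 8.09, 2.78 and 10.8 CPM. Both shares were near the 21.3% of all symbols. The list of central neurons and glia had 1 of 10 present, Slc17a6, which DRG neurons also transcribe.

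In 2 libraries markers of another tissue stood out. Replicate 2 held pituitary hormone RNA, with Prl (prolactin) at 0.101, 359.7, 0.0992 and 0 CPM and Gh (growth hormone) at 0, 104, 0 and 0 CPM, and a list sum of 471 CPM against at most 3.94 in the other 3. Replicate 4 held collagen RNA. Col1a1 was at 1.82, 15.3, 19.7 and 117 CPM, Col1a2 at 6.16, 17.4, 21.1 and 115 CPM, Col3a1 at 4.04, 3.66, 5.36 and 80.8 CPM and Col8a1 at 3.33, 1.77, 5.16 and 100.1 CPM. Fibroblast and pericyte markers without Rgs5 summed to 60.9, 77.3, 81.0 and 397 CPM. Rgs5, in that list as a pericyte gene, was at 469.7, 774, 418 and 519.5 CPM and did not follow the collagens.

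**Figure D4:**
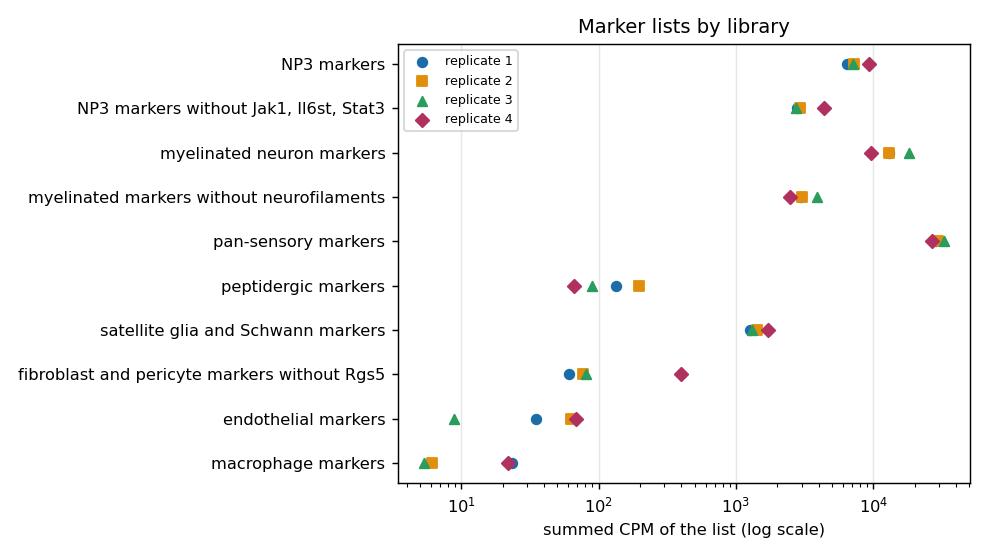
Summed CPM of marker lists in each of the 4 Sst libraries, on a log axis. Replicate 4 (diamonds) has the highest NP3 sum and the lowest myelinated neuron sum, and its fibroblast sum without Rgs5 is 397 CPM against 60.9 to 81.0 in the others.

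Replicates 3 and 4 differed in the levels of neuron class markers. Of the 15 NP3 markers, 10 were highest in replicate 4 and 0 lowest there, whereas among all 9226 present genes replicate 4 was highest for 22.2% and lowest for 36.5%. Of the 24 myelinated markers present, 20 were highest in replicate 3 and 16 lowest in replicate 4. Over all present genes replicate 3 was highest for 32.7%. With TMM scaling, which balances the bulk of genes between libraries, the NP3 markers highest in replicate 4 numbered 13, and the myelinated markers highest in replicate 3 and lowest in replicate 4 numbered 18 and 16. The shares of all present genes moved too with that scaling, to 30.4% highest and 28.8% lowest in replicate 4 and 26.2% highest in replicate 3. Of 159 present channel genes, 61 were highest in replicate 3 by CPM (38.4%, against 32.7% of all present genes). By CPM 75 were lowest in replicate 4 (47.2% against 36.5%). With TMM scaling these were 54 (34.0% against 26.2%) and 59 (37.1% against 28.8%). The 84 present receptor genes did not share this: by CPM 23 were highest in replicate 3 (27.4%) and 25 lowest in replicate 4 (29.8%), while 30 were highest in replicate 4 (35.7%).

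Some single genes showed the same contrast. Thy1, a surface protein of many neurons, was at 468, 601, 523 and 95.8 CPM and the neuronal tubulin Tubb3 at 311, 359, 312 and 130.4 CPM, both lowest in replicate 4. In the other direction Osmr, Trpv1, F2rl1, S1pr1 and Npy2r were highest in replicate 4, while Il31ra and Htr1f were highest there by smaller margins (1.11 and 1.26 times the next library). The part of cell composition in this was not tested.

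The spread between libraries was large for genes of low abundance and far above counting error at every level. Over 7215 genes with a mean of at least 10 CPM the median coefficient of variation (CV, SD over mean) was 33.1%. It was 82.3% for means of 1 to 10 CPM, 42.2% for 10 to 50, 27.4% for 50 to 100, 20.6% for 100 to 500 and 14.9% above that, whereas counting error alone gave medians of 16.5%, 6.74%, 3.76%, 2.44% and 1.08%. The biological coefficient of variation fitted by edgeR was 46.1%. Despite its name it holds all spread beyond read counting. The RNA of small pools was amplified and the reads carried no molecular identifiers, so technical and biological spread cannot be told apart. Genes that differed more than 2-fold between a pair of libraries numbered 1154 (16.0%) for replicates 1 and 3 and 2247 (31.1%) for replicates 2 and 4. Among the label genes, the CV was 20.5% for Il31ra, 28.8% for Cysltr2, 32.9% for Htr1f, 37.3% for Osmr, 40.7% for Nppb and 47.5% for Sst.

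**Figure D5:**
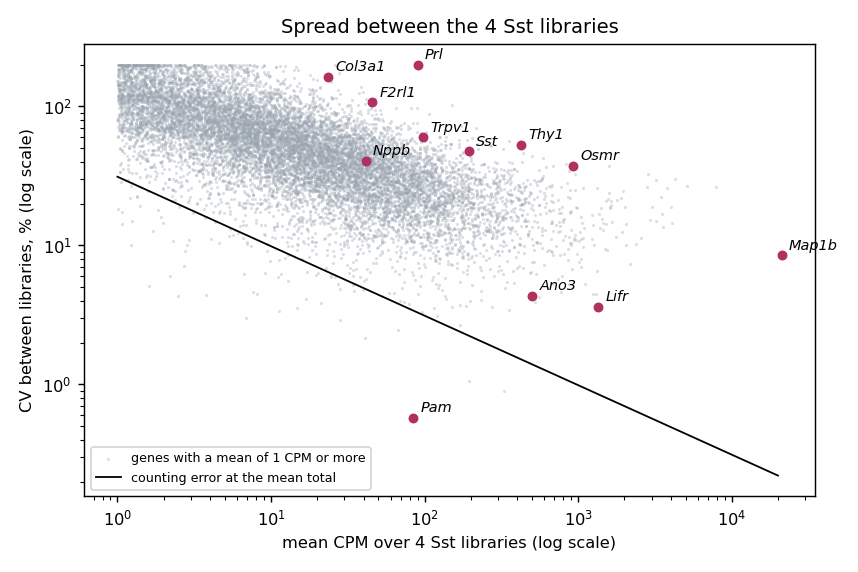
CV between the 4 Sst libraries against mean CPM for genes with a mean of at least 1 CPM, both on log axes, with the counting error expected at the mean library total as a line. Pam lies below the line, Lifr and Ano3 are steady for their level, and Prl, Col3a1 and F2rl1 lie at the upper edge.

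Among the steadiest genes with a mean of at least 50 CPM were, after Pam, Zyg11b, Cs, Smad2, Dctn4, Lipa, Apba1, Ncoa6, Psap, Lifr and Hook3, all with a CV of at most 3.62%. Cs, citrate synthase of mitochondria, was at 193, 197, 195 and 192 CPM and Psap, a lysosomal precursor protein, at 264, 266, 282 and 283 CPM. These were drawn from 2763 genes, so a small CV over 4 libraries describes these libraries only. The most variable were Prl, Kansl3, Supt20, Lpcat4, Rai1, Slc22a23, Leng8, Bsdc1, Golga7, Grn, Pdcl3 and Ddx58. Kansl3 was at 41.7, 23.3, 214 and 74.6 CPM, highest in replicate 3, and Supt20 at 62.6, 24.9, 40.8 and 198 CPM, highest in replicate 4.

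Each library also had genes that stood above the other 3. The ratios were smallest in replicate 1, where Cd81 was at 79.2, 29.3, 28.9 and 36.6 CPM, 2.16 times the next library. There Cse1l, Tmsb10, Dgkg, Anp32e, Adam9, Hnrnpll and Taf2 had smaller ratios. In replicate 2, after Gh and Prl, they were AI429214, Klhl3 (2.62, 55.4, 1.49 and 0 CPM), Hrasls, Nek6, Hccs and Klhdc1. In replicate 3 they were Zfp12 (4.24, 2.00, 62.3 and 6.01 CPM), Gmeb2, Tmem177, Fbxo41, Fbxo32, Dusp18, Clstn3 and Stx5a. In replicate 4 they were Ssh3 (1.41, 2.00, 0.198 and 52.7 CPM), Col8a1, Col3a1, Laptm5, Prdm8, Rps6ka5, Col1a1 and Pip5k1a. Laptm5, a lysosomal protein of blood cells, was at 2.42, 0, 6.55 and 63.3 CPM, and Prdm8, a transcription factor, at 6.86, 8.98, 4.47 and 63.2 CPM.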

How the data were processed

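RNA of hand-picked Sst-Cre neurons was amplified with Ovation RNA-seq V2 and made into libraries with Nextera XT, per the labels' protocols. The authors deposited raw counts of reads per gene symbol. Per the submitters' processing notes, bcl2fastq 2.17, Trimmomatic 0.33 and featureCounts were used, on the mouse build GRCm38. Not given in the sources used here are the aligner, the annotation, strand use and how multiply matching reads were treated. From the counts, CPM over the column total was computed in Python 3.11.15, and 0 columns of samples were left unused. Exon lengths and positions came from GENCODE M21, which held 39469 of 43372 symbols. edgeR 4.0.16 (R 4.3.3) gave TMM factors and, with an intercept only, the biological coefficient of variation over 7215 genes with a mean of at least 10 CPM. On simulated data made with 40% it gave 39.8%. No test between groups was run and no p-value is given. The labels call the 4 samples independent. Members and gene lists (944 symbols in 63 lists, 942 of them in the table) were chosen with earlier results of these data known.

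Genes named were the 6 marker genes, the 20 most abundant by CPM and by CPM per kilobase, the 5 most read members of each list with those at 0 counts, the 12 with the largest and the smallest CV among genes of at least 50 CPM, and for each library the 8 with the largest ratio to the next. Outside that rule, chosen after their values were seen, are Ano1, Avil, Cck, Crlf2, Ednra, Gad1, Gal, Gfra3, Htr7, Il13ra1, Il17ra, Il4ra, Isl1, Npr1, Piezo1, Pou4f1, Prdm12, Pvalb, Runx1, Runx3, Scn1a, Slc12a2, Slc12a5, Spp1, Sstr2, Stat3, Thy1, Trpa1, Trpc6, Tubb3 and Xist. The alternatives were TMM scaling, totals without mitochondrial genes, counts thinned to the smallest total, other thresholds and leaving out each library. Some genes that the rule names are not reported here.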

Additional observations from a re-analysis of the deposited data

Results flagged for a closer look

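A value was listed here when 1 of the 4 libraries lay far from the others for the range they spanned, by Dixon's ratio above its critical value. Chance lists about 1 in 20 groups of 4. Of 82 library measures and list sums, 3 were listed, and of 230 genes whose values are printed above, 26 were, where that rate gives 11.5. Part of the excess is built in by how genes were named, so 26 beside 11.5 is no result by itself. Gh, Prl, Klhl3, Zfp12, Ssh3, Laptm5, Prdm8, Cd81 and the collagen genes were named because 1 library was high or their spread was large, so their place here is no separate result.

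The list sums were the pituitary markers in replicate 2 (471 CPM), the fibroblast and pericyte markers without Rgs5 in replicate 4 (397 CPM) and the NP3 markers without Jak1, Il6st and Stat3 in replicate 4 (4377 CPM). In replicate 4 the genes that stood high were Ano3 (534 CPM), Col1a1 (117), Col1a2 (115), Col3a1 (80.8), Col8a1 (100.1), F2rl1 (119), F2rl3 (25.9), Laptm5 (63.3), Prdm8 (63.2), Ptgir (26.99) and Ssh3 (52.7). In the same library Kcna1 (155 CPM) and Ntrk3 (35.6) stood low. In replicate 2 Prl (359.7 CPM), Gh (104), Klhl3 (55.4), Hrh1 (29.9) and Cysltr1 (0.998) stood high and Scn2b (49.1) low. In replicate 3 Clcn5 (149 CPM), Zfp12 (62.3), Cnr1 (43.2), Runx3 (9.73) and Oprk1 (8.34) stood high, and in replicate 1 Scg3 (435 CPM) and Cd81 (79.2). For Ano3 the library that stood apart was within 1.09-fold of the lowest.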

How the results depend on the processing

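No paired analysis was possible because a single group of samples is described and no groups were compared. The counts of genes present (9187 to 11740 outside a threshold of 5 CPM, 6739 at that threshold), of channels present (121 to 178), of neuropeptides present (6 to 9), of genes at 100 CPM (1070 to 1489) and of shared top 100 genes (73 to 81) stayed within 1.5 times of the reported values under every alternative run. Receptors present fell to 54 at a threshold of 5 CPM, from 84. The median CV was 49.5% over genes with a mean of at least 1 CPM and 23.2% over those of at least 50 CPM, and 28.1% to 35.4% when 1 library was left out, the lowest without replicate 4. Leaving mitochondrial genes out of the totals raised each CPM by construction, and the mean sums became 10579 CPM for NP3, 18579 for myelinated neuron and 2002 for satellite glia and Schwann markers. It moved 137 of 230 printed gene means by more than their SD. TMM scaling moved 0 of the 230 by that measure, and thinning moved 1 (Pam). Leaving out 1 of 4 values cannot move a mean by its SD, so it was read as a fold: 33 of the 230 means changed by over 1.5-fold without some library, 2 without replicate 1, 8 without replicate 2, 12 without replicate 3 and 11 without replicate 4. Without replicate 2 Prl fell to a mean of 0.0667 CPM and Gh to 0. Levels at or below 0.333 CPM rest on at most 3 counts in the smallest library and are not separable from 0 there. Between 1 and 10 CPM the median CV was 82.3%, so single values there are imprecise.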
